A study of Mus musculus with 36 samples.

Results

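The kinesin family is described here through the 41 genes of the mouse count table, of 16614 rows in all, whose symbol starts with Kif. One further row with such a symbol, Kif13a, was left out by name in the rule that chose the members. The 41 genes hold 16 motors that carry cargo, 1 that takes apart microtubule ends in neurons, 13 that act in cell division, 6 of the cilium or of hedgehog signalling, 2 partners that bind motors, and 3 others. Both partners, Kifap3 and Kifbp, are not motors themselves but share the prefix.

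Kinesins are motor proteins that use ATP to walk along microtubules, mostly towards the plus end, which in an axon points away from the cell body. In neurons they carry synaptic vesicle precursors, mitochondria, receptors and RNA granules over long distances, and a motor is usually made of heavy chains with the motor domain and of light chains or adaptors that choose the cargo. RNA granules are dense clusters of mRNA and stalled ribosomes that travel on such motors, and FMRP, the product of Fmr1, is an RNA-binding protein found in them.

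Ribosome-protected fragments (RPFs), the stretches of mRNA that a ribosome shields from nuclease, were sequenced from the sucrose gradient pellet and from fraction 5/6. Clustered ribosomes sediment in the pellet, and fraction 5/6 holds ribosome clusters that do not pellet. The study describes stalled ribosomes as enriched in the pellet. It leaves unclear whether only those of RNA granules are there, and whether all stalled ribosomes sediment. RNA-seq was made from whole brain homogenate. The mice were C57BL/6, either WT or FMR1 KO, which lack FMRP in every cell, and all were 5 days old, with 10 brains pooled for each preparation. Each genotype was prepared with standard nuclease treatment in 10 mM MgCl2 and with low nuclease treatment in 2.5 mM MgCl2, so nuclease and magnesium cannot be told apart. There were 3 libraries for each of the 12 groups of genotype, material and preparation. The RPF replicates of a group were joined to separate linkers and then pooled before reverse transcription, so the pool and the group cannot be told apart.

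The standard RPF libraries held 6765065 to 40174168 counts, of which a single gene, Cdk8, took 36.7% to 63.4%, so levels are given as CPM, with Cdk8 left out of the library total. The low nuclease RPF libraries held 23634940 to 62310787 counts, the standard RNA-seq libraries 112249206 to 147216378, and the low nuclease RNA-seq libraries 41586791 to 141505786. The 41 genes together had 22450 to 134561 counts in each standard RPF library. Fmr1 was at 3.17 CPM in the library labelled WT fraction 5/6 replicate 3 of the standard preparation, where the other two WT libraries had 100.1 and 68.6 CPM and the FMR1 KO libraries 5.98 to 10.7 CPM. Everywhere else Fmr1 was at 59.5 to 116 CPM in WT and 1.92 to 18.1 CPM in FMR1 KO, apart from the WT low nuclease RNA-seq with 12.3 to 33.8 CPM. Results that use the library labelled WT fraction 5/6 replicate 3 are given with and without it where it changes a call. In WT replicate 2 and FMR1 KO replicates 2 and 3 of the low nuclease RNA-seq, 10 genes took up to 85.0% of the counts and the 6 neuron markers (Tubb3, Map2, Snap25, Rbfox3, Stmn2, Syt1) summed to 659 to 974 CPM. In the other 33 libraries they summed to 5022 to 11313 CPM, and none of them was at 0 in any library.

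Where the ribosomes sat on kinesin mRNAs was read from the deposited peaks, intervals that the authors listed on transcripts, in the 12 standard RPF libraries. Not all of them held many RPFs. The lowest height was 0 on Kif1b, Kif1a, Kif26b and Kif11, and the median height was 17 on Kif1b and 4 on Kif4. There were 2109 peaks on transcripts of 17 of the 41 genes, 101 to 214 in a library, which was 0.384% to 1.14% of that library's peaks. In the pellet 97.0% of them lay in the coding sequence and in fraction 5/6 96.5% did. The others lay in the 5′ UTR, and none lay in the 3′ UTR. Kif21b, a motor that also regulates microtubule growth in dendrites and axons, had 353 peaks over the 12 libraries, Kif3c, a partner of Kif3a, had 291, and Kif1b, which carries mitochondria and synaptic vesicle precursors, had 267. Kifap3 had 11 peaks, although its level per kb of exon was the highest of the family in the standard WT pellet. For Kif1a, the main motor of synaptic vesicle precursors, 3 libraries (FMR1 KO pellet replicate 2, with 24, FMR1 KO fraction 5/6 replicate 2, with 28, and WT fraction 5/6 replicate 1, with 25) held most of its 86 peaks. Kif5a, whose RPF counts were mostly higher in the pellet, had 1 to 12 peaks in a pellet library and 2 to 31 in a fraction 5/6 library.

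A site was taken as shared by the libraries whose peak had its middle within 6 nt of the middle in 1 of them, so that its outermost middles can lie further apart. By that rule a single site on these genes was shared by all 6 pellet libraries, 5 were shared by 5, and 24 by 4. The shared site lay at nucleotide 4085 of the Kif1b transcript, in codon 1251 of 1816 and exon 35 of 49. Its height was 72, 36 and 40 reads in the WT pellet and 83, 32 and 63 in the FMR1 KO pellet, unscaled between libraries. The same site was called in 4 of the 6 fraction 5/6 libraries, with heights of 22 and 45 in WT, the latter in the library labelled WT fraction 5/6 replicate 3, and 15 and 18 in FMR1 KO. A tolerance of 12 nt gave 9 sites in place of the 1, and one of 3 nt gave 1. The sites shared by at least 5 pellet libraries depended more on this choice, with 6 at 6 nt, 2 at 3 nt and 29 at 12 nt. Windows of 29 bases centred on the sites with a peak in at least 5 pellet libraries are written 5′ to 3′ along the mRNA. The codon at the middle of the site is in capitals, from GENCODE M21 transcripts on GRCm38. They mark the middles of deposited intervals, and the ends of the RPFs were not measured. The middles of the Kif2a site ran from 1753.0 to 1763.0. A sixth site, at nucleotide 2972 of the Kif5b transcript, is given without its sequence, and its middles ran from 2964.5 to 2973.5.
Kif1b codon 1251, coding, exon 35, chr4:149204217-149204245, minus strand, all 6 libraries: catgagcaagtacGACcttctggtttggt
Kif1b codon 1293, coding, exon 37, chr4:149199314-149199342, minus strand, 5 libraries: ggcatccagcgaCGGatcacagtgactat
Kif21b codon 808, coding, exon 17, chr1:136158300-136158328, plus strand, 5 libraries: aatctcagaagcgcCAGcaggaaatagtt
Kif2a codon 572, coding, exon 17, chr13:106968703-106968731, minus strand, 5 libraries: ccatccaccgagcCAGattgatgacttag
Kif5c codon 263, coding, exon 9, chr2:49700561-49700589, plus strand, 5 libraries: ttgtctgctcttGGAaatgtgatttctgc

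The windows of Kif21b and Kif2a had the same codon at their middle. The windows were searched, on the mRNA strand, for the motif ACTT, the motif ACTG, the motif AGGA and the motif TGGA, of which the last pair share their final 3 letters. The Kif2a window held ACTT, the Kif21b window held AGGA and the Kif5c window held TGGA, and neither Kif1b window held one. At least one of the motifs was in 55.4% of the 1056 coding peak windows of the pellet and in 60.1% of the 984 of fraction 5/6, against 50.2% of all 57304 windows of that length in the coding sequences of the same transcripts. These shares are a description of overlapping windows on 17 genes.

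**Figure D1:**
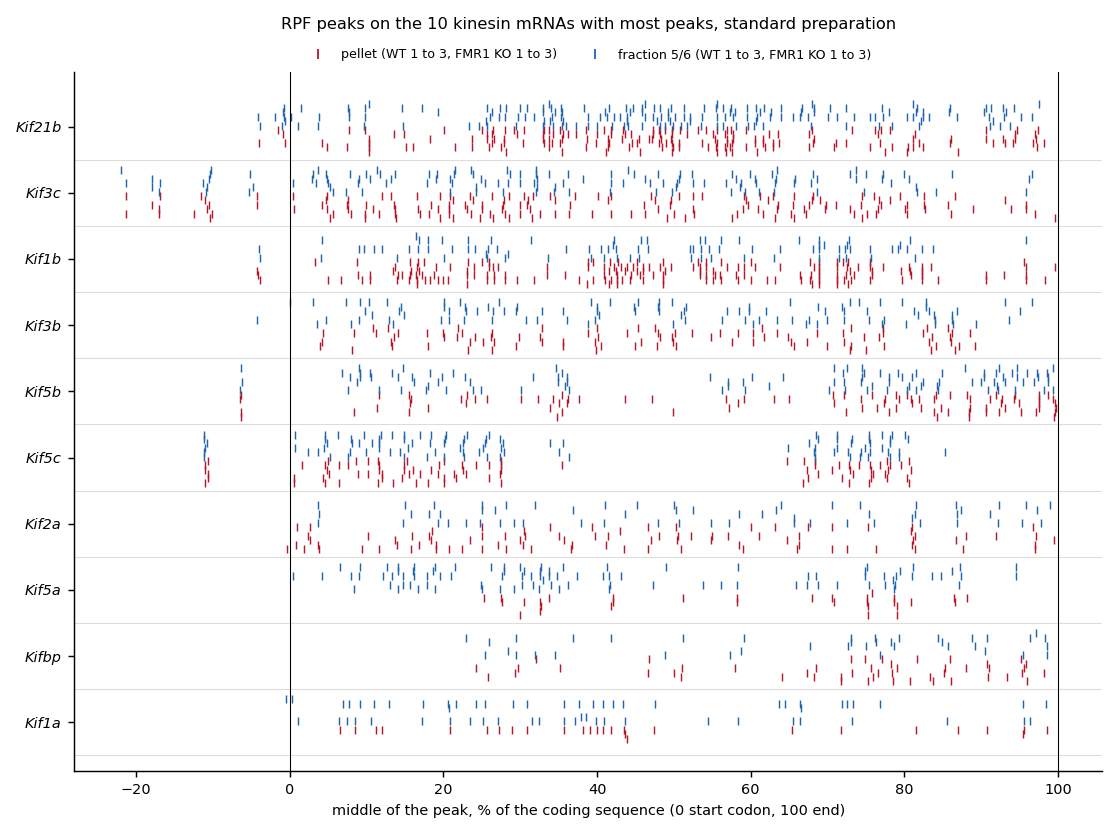
Middles of RPF peaks on the 10 kinesin mRNAs with most peaks in the standard preparation, as a percentage of the coding sequence, with 0 at the start codon and 100 at its end. Each tick is a peak, each row of ticks a library (red pellet, blue fraction 5/6), and values below 0 lie in the 5′ UTR. Peaks cover most of the coding sequence of Kif21b, Kif3c and Kif1b, and most of the 86 peaks of Kif1a come from 3 libraries.

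Cargo motors made up most of the family's RPFs. In the standard WT pellet the 41 genes summed to 6325, 6614 and 6688 CPM, and the 16 cargo motors made up 4970.0, 5217 and 5336 of these. In the FMR1 KO pellet the 41 genes had 6831, 4383 and 7565 CPM, so replicate 2 was lower than any WT library and the others higher. Whole brain RNA-seq gave 5126, 5991 and 5909 CPM in WT and 6007, 5784 and 5794 in FMR1 KO, with overlapping groups. The low nuclease pellet gave 8149, 7967 and 7327 CPM for WT, and the FMR1 KO libraries had 7606, 7491 and 7009.8 CPM. Fraction 5/6 of the standard preparation had 3789 and 2682 CPM in WT replicates 1 and 2, below the WT pellet, and 7528 in the library labelled WT replicate 3, above it. In FMR1 KO it had 3249, 4247 and 5240.2 CPM, which overlapped the pellet through pellet replicate 2.

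Levels of different genes are compared per kilobase of exon. In the standard WT pellet Kifap3, which links the kinesin-2 motor to its cargo, and Kif5a, a neuronal heavy chain of conventional kinesin (kinesin-1), led with 187.0 ± 8.94 and 180.4 ± 8.31 CPM per kb (SD, n = 3), and their libraries overlapped. Next came Kif1a with 126.0 ± 8.91, Kif3a, a heavy chain of kinesin-2, with 95.9 to 106 over its 3 libraries, and Kif5c, another neuronal heavy chain of kinesin-1, with 73.4 ± 5.17 CPM per kb. Each of these 3 lay apart from its neighbours in the order. Kif1b with 38.2 ± 2.87, Kif2a with 34.1 ± 2.08 and Kif5b, the kinesin-1 heavy chain of most tissues, with 33.7 ± 0.734 CPM per kb followed, each overlapping the next. Per kilobase of coding sequence the same 8 genes led, with Kif5a and Kifap3 exchanged and Kif5c before Kif3a.

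In whole brain RNA the order was another. Kif5a and Kif1a led the WT RNA-seq with 94.2 ± 12.4 and 93.7 ± 3.58 CPM per kb (SD, n = 3), and overlapped. Kif21b followed with 74.0 ± 14.5, before Kifap3 with 62.7 ± 7.14, Kif5c with 62.6 ± 3.96 and Kif3c with 54.1 ± 7.63 CPM per kb. Kifc2, a motor that walks to the minus end, came after these with 38.5 ± 3.61 and overlapped Kif3a with 37.8 ± 6.31. In fraction 5/6 of FMR1 KO, Kifap3 led with 164.0 ± 39.8 and Kif3a followed with 109.0 ± 25.9 CPM per kb, while Kif5a had 41.3 ± 11.9. In the low nuclease pellets Kifap3 led as well, with 199.0 ± 20.6 CPM per kb in WT and 208.0 ± 20.8 in FMR1 KO, followed by Kif1a with 179.8 ± 9.17 and 153.0 ± 13.4.

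**Figure D2:**
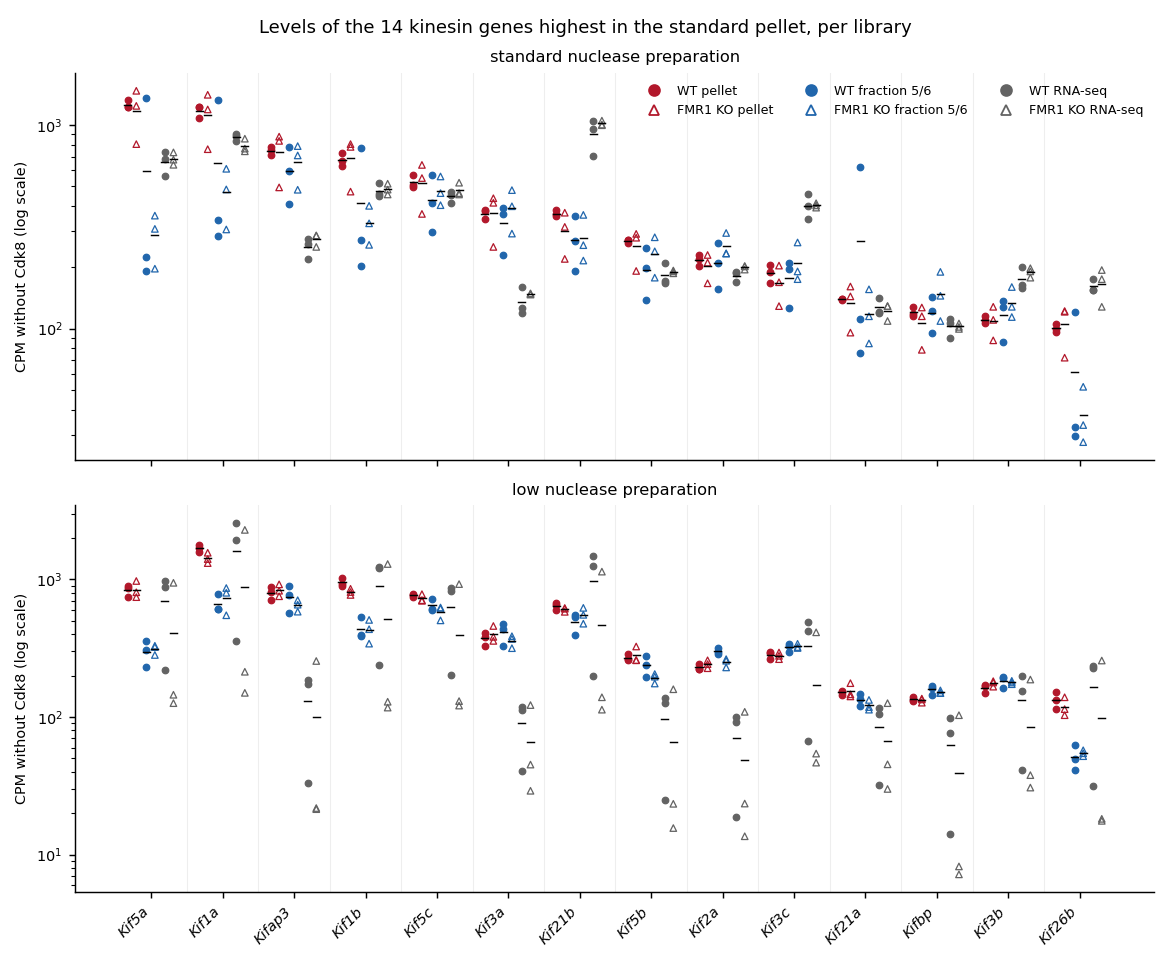
CPM without Cdk8 (log scale) of the 14 kinesin genes highest in the standard pellet, for each library of pellet RPFs, fraction 5/6 RPFs and RNA-seq, with WT as filled circles and FMR1 KO as open triangles. Bars are group means. Kif5a, Kif1a, Kif1b and Kif26b lie lower in fraction 5/6 than in the pellet except in the library labelled WT fraction 5/6 replicate 3, where Kif5a had 1362 CPM.

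Genes of cell division were low. The 13 together summed to 127, 182 and 117 CPM in the standard WT pellet and to 121, 122 and 203 CPM in the WT RNA-seq. Kif11, which pushes the spindle poles apart, had 24.1, 35.2 and 25.7 CPM in the WT pellet. Per kilobase of exon it had 3.80 ± 0.808 CPM there and overlapped Kif20a, a motor of the last steps of division, with 3.70 ± 0.923 (SD, n = 3). WT RNA-seq replicate 3 and FMR1 KO RNA-seq replicate 2 had the most of these kinesins (203 and 207 CPM), and 8 other genes of dividing cells (Mki67, Top2a, Ccnb1, Cdk1, Aurkb, Bub1, Cenpf, Plk1) were also highest there, at 339.7 and 352 CPM against 175 to 279 in the other 4 standard RNA-seq libraries. In such bulk libraries more dividing cells and more of these mRNAs in each cell cannot be told apart. The 6 genes of cilia and hedgehog signalling summed to 30.4, 29.3 and 24.9 CPM in the WT pellet and to 40.3, 36.7 and 39.2 in the WT RNA-seq. Kif28 had 1 to 3 counts in each standard pellet library, and Kifc5b had 2 to 10, while the gene it nearly copies, Kifc1, can share its reads, so the values of that pair are uncertain.

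Occupancy, the pellet RPFs of a gene against its RNA-seq, asks which kinesin mRNAs held more pellet ribosomes than their abundance in the brain would give. In WT, 25 of the 41 genes were higher and 7 lower, where 31.2% and 34.3% of the 16146 genes tested were called in these directions. In FMR1 KO, 25 were higher and 8 lower, against 31.9% and 35.2% of all genes. The median log2 fold change was 1.00 over the 41 genes and -0.11 over all genes in WT, and 0.79 and -0.07 in FMR1 KO. These are log2 fold changes from edgeR's quasi-likelihood test after TMM normalization, which sets the typical gene near 0, with Benjamini-Hochberg adjusted p-values over all genes. With library totals alone, Cdk8 included, the median of all genes moved to -2.13 in WT and -2.33 in FMR1 KO, and at face value 2 of the 41 genes were then higher and 31 lower in WT, and 0 and 34 in FMR1 KO. Relative to that shift, each of the 32 genes called in WT and the 33 in FMR1 KO kept its direction. With each single library left out in turn, 29 of the calls in WT and 27 of those in FMR1 KO were kept in every fit. Kif3b, Kif20a and Kifc1 lost the WT call in at least 1 fit. In FMR1 KO the calls so lost were those of Kif3b, Kif14, Kif16b, Kif17, Kif26b and Kif27.

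Kinesin-2, the heterotrimer of Kif3a, Kif3b and Kifap3, held the highest and a modest value side by side. Kifap3 (ENSMUSG00000026585, chr1:163779583-163917109) had 751, 711 and 783 CPM in the WT pellet and 219.6, 275 and 260.1 CPM in the RNA-seq. All pellet libraries lay above all RNA-seq libraries, and on the log2 scale the pellet was higher by 2.74 ± 0.17 (adjusted p = 1.15e-05, ± standard error here and below) in WT and by 2.51 ± 0.15 in FMR1 KO. Kif3a (ENSMUSG00000018395, chr11:53567379-53601967) had 377, 381 and 344 CPM in the WT pellet and 119, 161 and 126 in the RNA-seq. Its groups did not overlap either, with a log2 fold change of 2.59 ± 0.16 in WT (adjusted p = 1.28e-05) and 2.40 ± 0.13 in FMR1 KO. Kif3b, the other motor of the trimer, had 110.2, 115 and 107 CPM in the WT pellet against 159, 200.1 and 164 in the RNA-seq. Its pellet CPM thus lay below its RNA CPM, and after TMM its log2 fold change was 0.50 ± 0.13 in WT and 0.31 ± 0.09 in FMR1 KO. The WT call was lost without pellet replicate 1, and the FMR1 KO call without RNA-seq replicate 1 or without any 1 of the pellet libraries. Kif3c was at 0.05 ± 0.14 and -0.17 ± 0.11 and was not called.

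Heavy chains of kinesin-1 and the kinesin-3 motors Kif1a, Kif1b and Kif13b were higher as well. Kif1c and Kif16b, also of kinesin-3, were called lower and are given below. Kif5a (ENSMUSG00000074657, chr10:127225696-127263348) had 1233, 1223 and 1328 CPM in the WT pellet and 564, 734 and 678 in the RNA-seq, without overlap, and a log2 fold change of 2.1 ± 0.17 (adjusted p = 3.61e-05). The other heavy chains had 1.72 ± 0.13 for Kif5b and 1.39 ± 0.15 for Kif5c in WT. Kif1b and Kif1a had 1.67 ± 0.15 and 1.59 ± 0.14, and Kif13b, a carrier of signalling membranes, 1.02 ± 0.12. Kif21a, which restrains microtubule growth, had 1.29 ± 0.13 in WT and 1.21 ± 0.12 in FMR1 KO, and Kif26b, whose motor domain is inactive, 0.47 ± 0.11 and 0.43 ± 0.15, all called higher. In FMR1 KO, Kif5a, Kif5b, Kif5c, Kif1a, Kif1b and Kif13b ranged from 1.12 (Kif13b) to 1.86 (Kif5a), all called higher. Kif2a, which shortens microtubules in axon branches, was at 1.41 ± 0.11 in WT and 1.13 ± 0.10 in FMR1 KO, and Kifbp, which binds several kinesins and keeps them off microtubules, at 1.39 ± 0.12 and 1.15 ± 0.09.

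Kifc2 and Kif1c had the lowest occupancy of the genes with more than a few counts. Kifc2 (ENSMUSG00000004187, chr15:76659858-76668196) had 5.73, 7.93 and 7.05 CPM in the WT pellet and 135, 155 and 163 CPM in the RNA-seq. It was the lowest of the family, with a log2 fold change of -3.31 ± 0.15 in WT (adjusted p = 5.12e-06) and -3.66 ± 0.20 in FMR1 KO. Kif1c, a relative of Kif1a and Kif1b, had 7.14, 8.67 and 6.88 CPM in the WT pellet and 77.0, 59.8 and 73.1 in the RNA-seq, a log2 fold change of -2.06 ± 0.13 in WT and -2.01 ± 0.27 in FMR1 KO. For both genes the pellet libraries lay far below the RNA-seq libraries. Kif16b, a motor of early endosomes, was at -0.73 ± 0.19 in WT and -0.55 ± 0.15 in FMR1 KO, and Kifc1, a minus end motor of the spindle, at -1.05 ± 0.35 and -1.23 ± 0.27. Kifc5b with -1.98 ± 0.43 and -2.06 ± 0.35 and Kif28 with -1.75 ± 0.44 and -2.12 ± 0.43 were also called lower in both genotypes, on the few counts given above.

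The remaining lower calls were made in a single genotype. Kif26a, whose motor domain cannot hydrolyse ATP, was lower in WT with -0.66 ± 0.12 and not called in FMR1 KO with -0.19 ± 0.39. Kif21b was at -0.14 ± 0.17 in WT and lower in FMR1 KO with -0.66 ± 0.13, and Kif17, a motor of dendritic receptors, was at -0.22 ± 0.12 and lower in FMR1 KO with -0.54 ± 0.15. Tested directly, the difference in occupancy between the genotypes was not called for any of the 41 genes (0.0673% of all genes were), with 1 of them, Kif21b, at an unadjusted p under 0.05 in edgeR and 0 called by DESeq2. Its difference was -0.48 ± 0.21 (adjusted p = 0.795), and the next smallest p-values belonged to Kif2a with -0.25 and Kif22, a chromosome motor, with -0.50.

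Cell division kinesins had 9 of 13 genes higher and 2 lower in each genotype, with medians of 1.15 in WT and 0.82 in FMR1 KO, beside the 31.2% higher and 34.3% lower of all genes in WT and 31.9% and 35.2% in FMR1 KO. Kif15, which supports the spindle beside Kif11, had 13.1, 23.4 and 12.7 CPM in the WT pellet and 9.16, 8.0 and 15.1 in the RNA-seq, so the CPM of the groups overlapped, and its log2 fold change was 1.75 ± 0.28 in WT and 1.34 ± 0.21 in FMR1 KO. Kif20b, which acts at the end of cell division, was at 1.5 ± 0.26 and 1.27 ± 0.22, and Kif11 at 1.45 ± 0.26 and 1.04 ± 0.19. The others called in both genotypes were Kif23, a motor of the cleavage furrow, with 1.40 ± 0.19 and 1.23 ± 0.24, Kif18a, which brings chromosomes into line, with 1.39 ± 0.24 and 1.28 ± 0.21, Kif22 with 1.34 ± 0.24 and 0.79 ± 0.18, Kif4, a chromosome motor, with 1.15 ± 0.17 and 1.10 ± 0.14, and Kif2c, which depolymerises microtubules at kinetochores, with 1.00 ± 0.21 and 0.82 ± 0.19. Kif20a was called in WT with 0.66 ± 0.20 and had 0.34 ± 0.21 in FMR1 KO, while Kif14 was called in FMR1 KO with 0.61 ± 0.21 and had 0.55 ± 0.36 in WT. The 8 markers of dividing cells summed to 245, 325 and 226 CPM in the WT pellet against 175, 176 and 339.7 in the RNA-seq, and their part in these values was not tested. Of the 6 genes of cilia and hedgehog signalling 3 were higher in both genotypes, against the same shares of all genes, namely Kif9 with 1.48 ± 0.36 in WT, Kif27 with 1.11 ± 0.23 and Kif7, a hedgehog regulator in the cilium, with 0.88 ± 0.15. Of the pellet RPF peaks on kinesin genes 97.0% lay in coding sequence, the share of RPF counts there was not measured, and the part of UTR length in the occupancy was not tested.

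**Figure D3:**
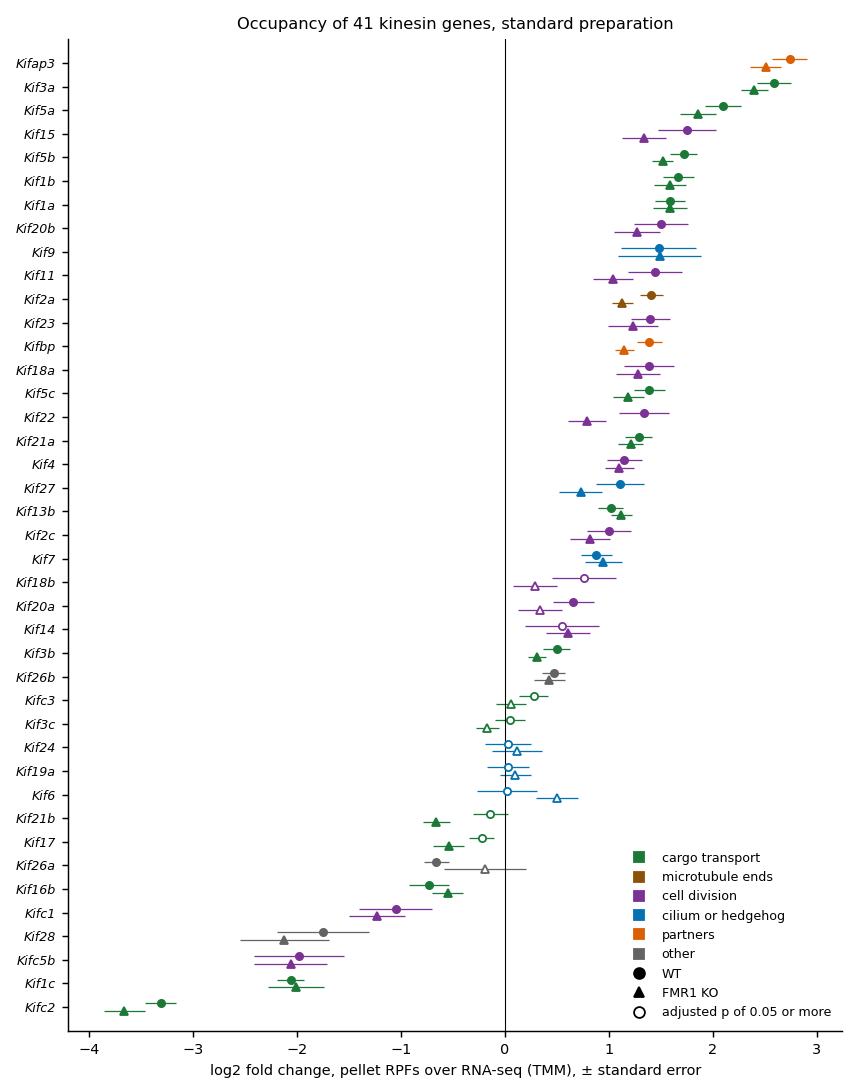
Occupancy of the 41 kinesin genes, as log2 fold change of pellet RPFs over RNA-seq after TMM normalization in the standard preparation, with WT as circles and FMR1 KO as triangles, colours for roles and bars for ± standard error (n = 3 libraries a group). Filled symbols have an adjusted p under 0.05. Kifap3 is highest at 2.74 in WT and Kifc2 lowest at -3.31, and with library totals alone the median of all genes moves to -2.13 and most of the 41 genes lie below 0.

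Enrichment, the RPFs of the pellet against those of fraction 5/6, asks which mRNAs held more of the ribosomes that pellet. In FMR1 KO of the standard preparation 10 of 39 genes were higher and 0 lower, while 9.11% of all genes were called higher and 2.40% lower. The median was 0.43 over the kinesin genes and -0.04 over all genes. Kif5a had 1242, 806 and 1473 CPM in the FMR1 KO pellet and 197, 309 and 359 CPM in fraction 5/6, without overlap, and the highest log2 fold change of the family, 2.32 ± 0.23 (adjusted p = 0.003). Kif26b (ENSMUSG00000026494, chr1:178529125-178939200), one of the genes with an inactive motor domain, had 122, 72.0 and 121 CPM in the pellet and 27.7, 33.6 and 51.8 in fraction 5/6, with 1.79 ± 0.13 (adjusted p = 0.00128). The groups of Kif26b stood apart as well.

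The other 8 genes called there were 3 cargo motors and 5 genes of cell division. Kif1a had 1.57 ± 0.23, Kif13b 1.49 ± 0.17 and Kif1b 1.34 ± 0.19. Kif20b had 1.39 ± 0.19, Kif15 1.22 ± 0.14, Kif23 0.85 ± 0.18, Kif4 0.79 ± 0.14 and Kif11 0.53 ± 0.13. The 8 markers of dividing cells summed to 284, 184 and 331 CPM in the FMR1 KO pellet and to 152, 179 and 212 in its fraction 5/6, and their part in the values of these 5 was not tested. Leaving out 1 library at a time gave 6 to 11 genes, and Kif13b, Kif15, Kif1b, Kif20b, Kif26b and Kif5a, 6 of the 10, were called in each of these fits. The count of 6 came without FMR1 KO fraction 5/6 replicate 1, where Kif11, Kif1a, Kif23 and Kif4 lost their call. With library totals alone the median of all genes moved to -0.60 and 0 of the 39 genes were called (0 higher and 0 lower), though each of the 10 stayed above that shift, and DESeq2 called 19 higher, with 1570 genes higher and 503 lower in the whole table against 1206 and 318 by edgeR.

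In WT of the standard preparation none of the 39 genes was called (0.0153% of all genes were higher and 0.00765% lower), with 2 of them at an unadjusted p under 0.05 in edgeR and 0 called by DESeq2. The median was 0.31 over the kinesin genes and -0.01 over all genes. Kif5a had 225 and 192 CPM in fraction 5/6 replicates 1 and 2 and 1362 in the library labelled WT replicate 3, which lay above the 1223 to 1328 CPM of the pellet. Kif1a had 343, 285 and 1329.9 CPM, Kif1b 274, 204 and 769, and Kif26b 32.8, 29.6 and 121 in the same 3 libraries, so this library was also at or above the pellet for them. Kif21a had 111 and 76.2 CPM in fraction 5/6 replicates 1 and 2, and 621 in replicate 3. Rpn1 and Rpn2, of the rough endoplasmic reticulum, summed to 20.4, 14.3 and 65.4 CPM in these libraries and to 31.2, 28.5 and 55.4 CPM in the WT pellet, and their part was not tested.

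Without the library labelled WT fraction 5/6 replicate 3, 9 of the genes were higher and 0 lower in WT. Of the 13232 genes tested that fit called 1029 higher and 246 lower. The 9 were Kif5a with 2.52 ± 0.23 (adjusted p = 0.00795), Kif20b with 1.96 ± 0.29, Kif1a with 1.82 ± 0.20, Kif13b with 1.62 ± 0.14, Kif26b with 1.59 ± 0.17, Kif1b with 1.43 ± 0.18, Kif5b with 0.62 ± 0.12, Kif21b with 0.61 ± 0.12 and Kifc3, a minus end motor, with 0.52 ± 0.09. The lone pair of fraction 5/6 libraries then stood for the group. Leaving out any other single library of this comparison gave 0 calls.

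The low nuclease preparation gave a separate set of libraries for the same question. In WT, 8 of 41 genes were higher and 0 lower, while 14.3% of all genes were higher and 8.59% lower, and the medians were 0.28 and -0.02. Kif5a had 895, 860.0 and 747 CPM in the WT pellet and 307, 358 and 230.3 in fraction 5/6, without overlap, and a log2 fold change of 1.59 ± 0.23 (adjusted p = 0.0107). Kif26b with 1.49 ± 0.19, Kif1a with 1.44 ± 0.20, Kif1b with 1.23 ± 0.20, Kif13b with 1.03 ± 0.10, Kif26a with 1.00 ± 0.15, Kif20b with 0.93 ± 0.24 and Kif15 with 0.91 ± 0.21 were the others. The count was 6 to 10 with 1 library left out, and Kif15 and Kif20b each lost their call in at least 1 of these fits. The 8 markers of dividing cells summed to 257, 267 and 255 CPM in this pellet and to 189, 210.3 and 359 in its fraction 5/6. Rpn1 and Rpn2 summed to 140.1, 129 and 188 CPM in this pellet and to 54.1, 71.9 and 61.4 in its fraction 5/6, without overlap, and their part in these values was not tested.

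In FMR1 KO of the low nuclease preparation 12 of 41 genes were higher and 0 lower, against 8.82% and 11.8% of all genes, with medians of 0.41 and -0.04. Kif5a had 972, 805 and 742 CPM in the pellet and 282, 322 and 329 in fraction 5/6, without overlap, and a log2 fold change of 1.63 ± 0.19 (adjusted p = 0.0126). The others ran from Kif20b with 1.51 ± 0.24 and Kif26b with 1.32 ± 0.17 through Kif15 with 1.24 ± 0.24, Kif1a with 1.14 ± 0.20, Kif1b with 1.11 ± 0.17, Kif13b with 1.08 ± 0.13 and Kif11 with 0.88 ± 0.20 down to Kif24, which acts at centrioles, with 0.51 ± 0.12. Between these lay Kif18a with 0.78 ± 0.16, Kif5b with 0.75 ± 0.18 and Kif5c with 0.52 ± 0.14. The markers of dividing cells had 262, 194 and 239 CPM in the pellet and 157, 132 and 179 in fraction 5/6, without overlap, and their part was not tested. Only Kif13b and Kif5a were called with any 1 of the 6 libraries left out. The count fell to 3 without fraction 5/6 replicate 1 or without its replicate 2, to 5 without fraction 5/6 replicate 3 or pellet replicate 2, to 6 without pellet replicate 3 and to 9 without pellet replicate 1. These are counts of the kinesin genes alone, and how the calls over all genes moved in these fits is not given here.

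The genes called higher in all 3 comparisons that gave calls were Kif5a, Kif1a, Kif1b, Kif13b, Kif26b, Kif15 and Kif20b. They were 7 of the 10 called in FMR1 KO with standard nuclease, 7 of the 8 in WT with low nuclease and 7 of the 12 in FMR1 KO with low nuclease, and these comparisons share no library. Of all genes 9.11%, 14.3% and 8.82% were called higher in these comparisons in that order. The share of all genes called in all 3 was not counted. Of the 7, Kif5a and Kif13b were called in every fit of all 3 comparisons that left out 1 library, and the other 5 were not. The kinesin-2 motors Kif3b and Kif3c stayed between -0.07 and 0.17 in all 4 comparisons, Kif2a between -0.27 and 0.15, and Kifbp between -0.16 and 0.01, none of them called. Among the heavy chains of kinesin-1, Kif5a was at 2.32 and Kif5c at 0.40 in FMR1 KO with standard nuclease, and that difference between genes was not tested. Enrichment and occupancy share the pellet libraries.

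**Figure D4:**
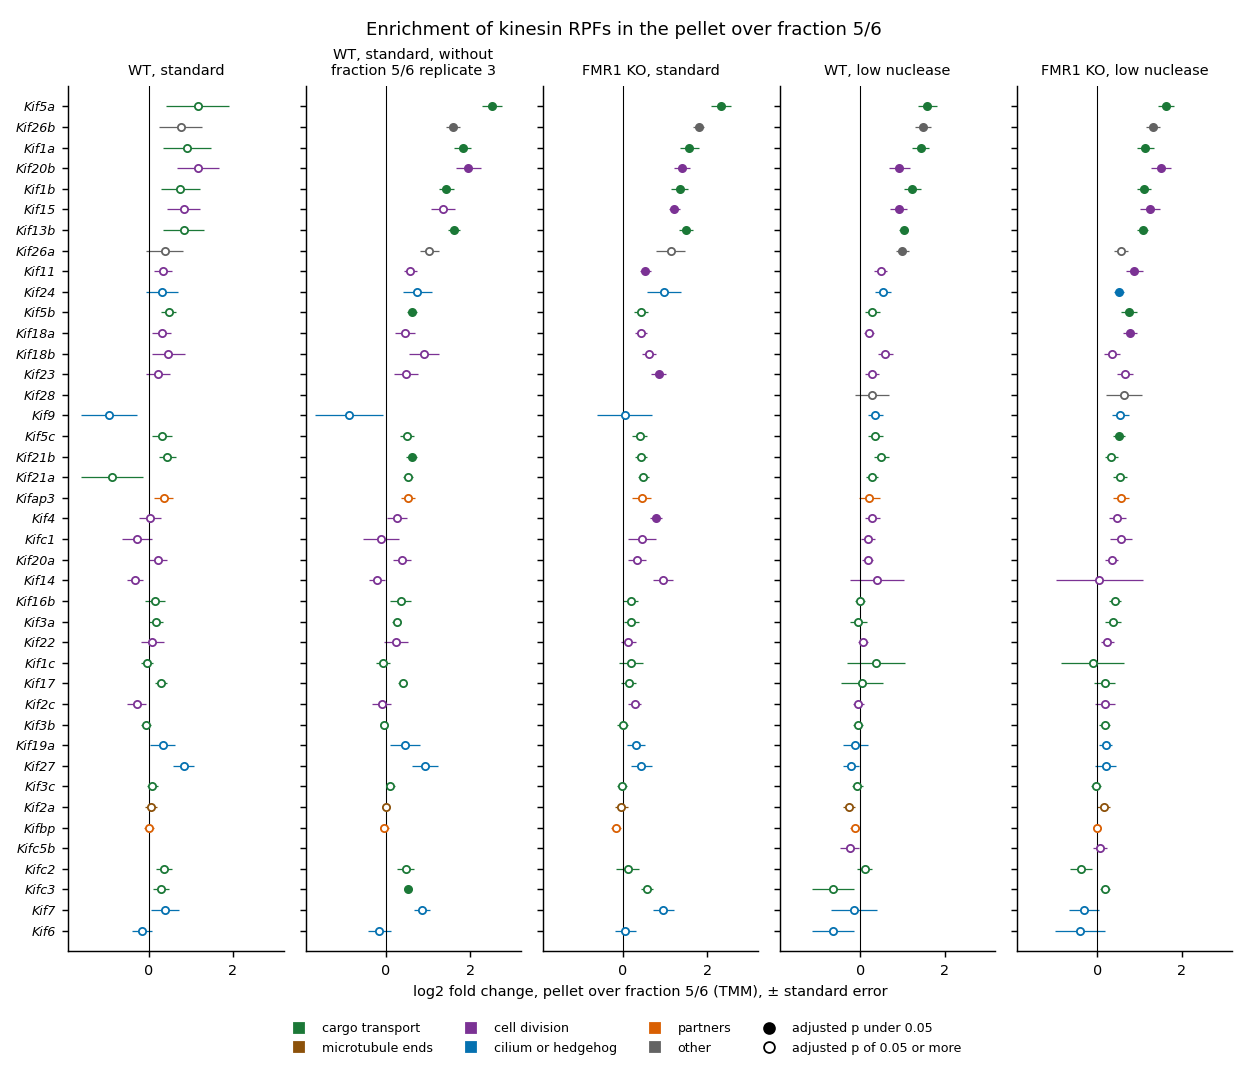
Enrichment of the kinesin genes as log2 fold change of pellet over fraction 5/6 RPFs after TMM normalization, in WT and FMR1 KO of both preparations and in WT without the library labelled fraction 5/6 replicate 3, with bars for ± standard error and filled symbols for an adjusted p under 0.05. Kif5a lies between 1.16 and 2.52 in the 5 panels, and with library totals alone 0 genes are called in FMR1 KO with standard nuclease.

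Enrichment followed the length of the coding sequence, in the family and in all genes. The length was looked at after the values had been seen, and the correlations are across genes, which share libraries and are not replicates. Spearman's rho between coding length and enrichment was 0.69 over 39 kinesin genes and 0.57 over 13241 genes in FMR1 KO with standard nuclease. It was 0.63 and 0.48 in WT with low nuclease, 0.48 and 0.60 in FMR1 KO with low nuclease, and 0.50 and 0.42 in WT with standard nuclease (0.63 and 0.46 without the library labelled WT fraction 5/6 replicate 3). For occupancy rho was 0.03 over the kinesin genes and 0.37 over all genes in WT, and 0.08 and 0.37 in FMR1 KO.

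Of the 14 kinesin genes with a coding length over 4000 nt, 6 were called enriched in FMR1 KO with standard nuclease, against 4 of the 25 shorter ones. In WT with low nuclease these counts were 7 of 14 and 1 of 27, and in FMR1 KO with low nuclease 7 of 14 and 5 of 27. Of all genes over that length 51.6% were called higher in FMR1 KO with standard nuclease and of the shorter ones 5.2%, with 52.7% and 11% in WT and 45.9% and 5.6% in FMR1 KO with low nuclease. The median over the 14 long kinesin genes was 1.06 in FMR1 KO with standard nuclease, and 0.98 over the 1117 genes of that length in the whole table. Kif5a, with 3081 nt of coding sequence, was the only gene under that length called in all 3 comparisons. Kif16b, with 6075 nt, was longer than all but Kif1b and Kif26b and had 0.18 ± 0.17 in FMR1 KO with standard nuclease and 0.00 ± 0.11 in WT with low nuclease, neither called. In FMR1 KO with low nuclease it had 0.41 ± 0.14 (adjusted p = 0.0818), which edgeR did not call and DESeq2 did.

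**Figure D5:**
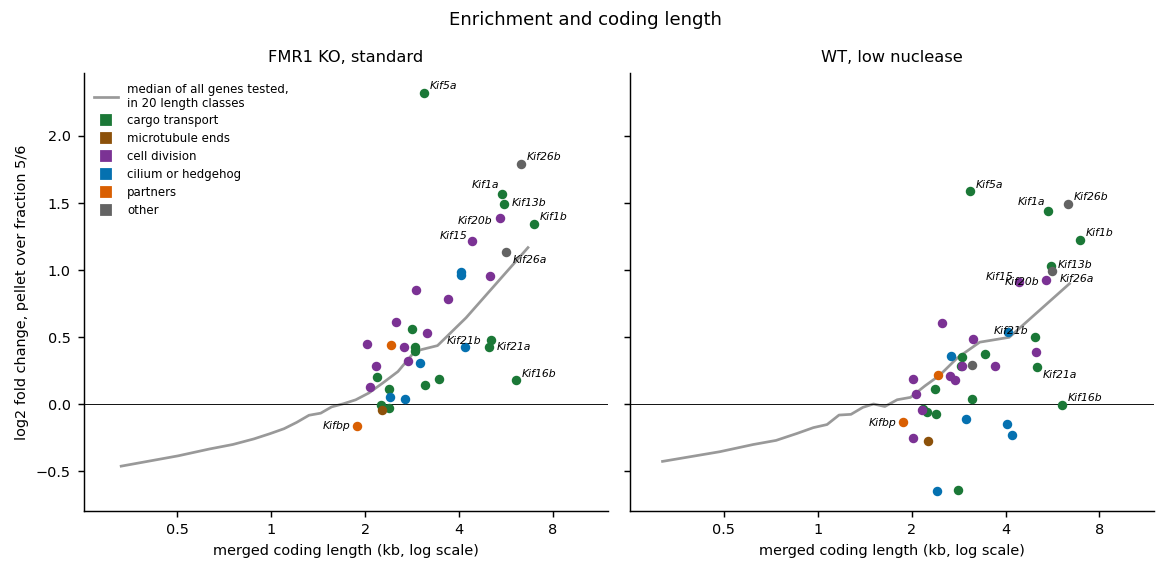
Enrichment (log2 fold change of pellet over fraction 5/6, TMM) against the merged coding length of each kinesin gene (kb, log scale), for FMR1 KO with standard and WT with low nuclease, with colours for roles. The grey line is the median of all genes tested in 20 length classes. Kif5a lies at 2.32 and 1.59 with 3.08 kb, far above the line, and Kif16b at 0.18 and 0.00 with 6.08 kb, below it.

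FMR1 KO and WT were compared within each material to ask whether loss of FMRP changed the kinesin mRNAs. None of the genes was called in any of the 6 comparisons by edgeR's quasi-likelihood test. In the standard pellet 0 of 39 were called (0.0150% of all genes), 0 had an unadjusted p under 0.05 and DESeq2 called 0. Kif21b had 358, 381 and 364 CPM in WT and 316, 220.0 and 371 in FMR1 KO, with overlap, and the smallest p, at a log2 fold change of -0.26 ± 0.12 (adjusted p = 0.867). Kif4 with 0.24 ± 0.11 and Kif26a with 0.46 ± 0.22 came next.

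In standard fraction 5/6, 0 of 39 were called (0.00% of all genes, 2 of the 39 at an unadjusted p under 0.05, 0 by DESeq2). Kif14, which acts in the last step of cell division, had 6.5, 3.63 and 7.08 CPM in WT and 2.27, 3.71 and 3.97 in FMR1 KO, with overlap, and a log2 fold change of -1.06 ± 0.24 (adjusted p = 0.826), followed by Kifc1 with -0.71 ± 0.26 and Kifc3 with -0.49 ± 0.21. The median over the 39 genes was -0.29 and over all genes -0.03, and the library labelled WT replicate 3 enters these values. In the standard RNA-seq 0 of 41 were called (0.0736% of all genes, 0 of the 41 at an unadjusted p under 0.05, 0 by DESeq2). Kif2a had 169, 189.7 and 188 CPM in WT and 202, 195 and 203 in FMR1 KO, without overlap, at a log2 fold change of 0.16 ± 0.09 (adjusted p = 0.999), before Kif22 with 0.34 ± 0.20 and Kif16b with -0.27 ± 0.17.

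In the low nuclease preparation, 0 of 41 were called in the pellet (0.0197% of all genes, 3 of the 41 at an unadjusted p under 0.05, 0 by DESeq2). Kif19a, which sets the length of motile cilia, had the smallest p in both RPF materials. Its pellet levels were 6.08, 9.32 and 12.1 CPM in WT and 4.37, 5.23 and 4.95 in FMR1 KO, at -0.83 ± 0.28 (adjusted p = 0.907), and the groups did not overlap. Kif18b, a motor of spindle microtubule ends, was at -0.36 ± 0.13, and Kif6, of ependymal cilia, at 0.84 ± 0.33. In fraction 5/6, 0 of 41 were called (0.0445% of all genes, 7 of the 41 at an unadjusted p under 0.05), and DESeq2 called Kif18a and Kif19a, 2 genes, lower, among 119 genes lower and 76 higher in the whole table. Kif19a had 12.1, 9.14 and 11.2 CPM in WT and 3.99, 5.52 and 4.92 in FMR1 KO, at -1.19 ± 0.18 (adjusted p = 0.393), and Kif18a 7.24, 7.82 and 6.5 against 4.35, 4.74 and 4.92, at -0.64 ± 0.14 (adjusted p = 0.57). Neither gene's groups overlapped, and Kif22 with -0.42 ± 0.14 came next.

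Kif19a was measured again with standard nuclease. There it had 1.87, 2.38 and 3.01 CPM in WT fraction 5/6 and 2.58, 3.18 and 3.27 in FMR1 KO, and the groups overlapped through the 3.01 of the library labelled WT replicate 3. After TMM its log2 fold change there was 0.03 ± 0.33 (adjusted p = 0.99), and in the standard pellet 0.06 ± 0.18. The 3 ependyma markers (Foxj1, Ccdc153, Rsph1) summed in low nuclease fraction 5/6 to 18, 20.1 and 20.8 CPM for WT and 181, 22.8 and 199 CPM for FMR1 KO, and the 8 markers of dividing cells to 189, 210.3 and 359 against 157, 132 and 179. Their part in the values of Kif19a and Kif18a was not tested.

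In the low nuclease RNA-seq 0 of 41 were called (0.00% of all genes, 2 of the 41 at an unadjusted p under 0.05, 0 by DESeq2). Kif15 was at 1.33 ± 0.51, Kif9 at 1.61 ± 0.65 and Kif6 at 1.23 ± 0.64 (adjusted p = 0.859 for each). These values rest on the 3 RNA-seq libraries with few neuron counts, and without them Kif9 was at -0.13, Kif6 at -0.63 and Kif15 at 0.05, with 1 FMR1 KO library left against 2 of WT and its spread assumed to be like theirs. Kif15 itself had 3.96, 0.618 and 5.78 CPM in WT and 4.80, 1.17 and 2.06 in FMR1 KO, with overlap. The difference in enrichment between the genotypes with standard nuclease was called for 0 of 39 genes (0.00% of all genes, 2 of the 39 at an unadjusted p under 0.05, 0 by DESeq2). Kif14 had a difference of 1.31 ± 0.30 (adjusted p = 0.793), Kif4 of 0.78 ± 0.30 and Kif2c of 0.59 ± 0.27. Without the library labelled WT fraction 5/6 replicate 3 these differences were 1.18, 0.55 and 0.41, and again 0 of the genes were called.

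Light chains, adaptors and motors outside the Kif names gave a wider view of transport. Of 29 such genes 15 were higher and 8 lower in WT occupancy, and 14 higher and 10 lower in FMR1 KO. Over all genes 31.2% were higher and 34.3% lower in WT, and 31.9% and 35.2% in FMR1 KO. The light chains of kinesin-1, which bind its cargo, had 1.35 ± 0.18 for Klc1, 0.81 ± 0.16 for Klc4, 0.66 ± 0.15 for Klc2 and -2.06 ± 0.22 for Klc3 in WT, all called. In enrichment none of the 4 light chains was called in any of the 4 comparisons, with values from -0.29 to 0.50. Of the heavy chains of kinesin-1, Kif5a was called in 3 of these comparisons, and Kif5b and Kif5c only in FMR1 KO with low nuclease. The difference between heavy and light chains was not tested.

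Of the 29 genes 7 were enriched in FMR1 KO with standard nuclease and 0 were lower, 7 and 2 in WT with low nuclease and 4 and 2 in FMR1 KO with low nuclease. The shares over all genes were 9.11% and 2.40%, 14.3% and 8.59%, and 8.82% and 11.8% in that order. In WT with standard nuclease edgeR called none of them, with 2 at an unadjusted p under 0.05, and DESeq2 called 0. Without the library labelled WT fraction 5/6 replicate 3, 5 of the 29 were higher and 1 lower there, against 1029 and 246 of all 13232 genes. These were Grip1, Madd, Mapk8ip2, Mapk8ip3, Plekhm2 and Ppfia3. Cenpe, the kinesin that carries chromosomes to the spindle equator, had 2.01 ± 0.38, 1.46 ± 0.12 and 1.69 ± 0.23 in the 3 comparisons with calls. Madd, which joins Kif1a and Kif1b to their vesicles, had 1.38 ± 0.17, 1.56 ± 0.24 and 1.33 ± 0.15, Kidins220, an adaptor of kinesin-1, 1.17 ± 0.16, 1.27 ± 0.19 and 0.93 ± 0.18, and Stard9, a kinesin of the spindle pole, 0.85 ± 0.16, 0.72 ± 0.15 and 0.73 ± 0.19. With all libraries kept, the lower calls were all with low nuclease. In WT they were Lin7b and Lin7c, which join Kif17 to receptors, with -0.46 ± 0.12 and -0.45 ± 0.12. In FMR1 KO they were Lin7b with -0.73 ± 0.12 and Rhot2, a mitochondrial anchor of motors, with -0.32 ± 0.08.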

How the data were processed

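RPF and RNA-seq counts were deposited as whole numbers per gene, which the authors made by trimming (Cutadapt 2.10), removal of rRNA and ncRNA reads (Bowtie2 2.3.5), alignment to GRCm38 (STAR 2.7.8a), removal of duplicates (Picard 2.26.6, SAMtools 1.19.2) and counting (featureCounts 2.2.0), per the submitters' processing notes and the study's methods. Removing duplicates by position can lower the counts of crowded sites. Peak heights are a signal that the authors made as RPF coverage per sample on Ensembl 102 transcripts, unscaled between samples, for 12 libraries. The middle of a deposited interval was used as the peak, and the study's methods ask that the top of a peak exceed the mean of its transcript by a fixed factor. Whether the deposited lists were taken before or after that step is not given in the sources used here.

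Protein-coding genes (GENCODE M21) were kept by filterByExpr, normalized by TMM and tested with edgeR 4.0.16 (limma 3.58.1, R 4.3.3) between the 3 libraries of each compared group, at a Benjamini-Hochberg adjusted p of 0.05 over all genes tested. Kif28 and Kifc5b had too few counts for the comparisons among standard RPF libraries. Standard errors were derived from the test statistic. CPM were taken over the library total without Cdk8, also per kb of merged exon or coding sequence. Rows without a gene name (92) stayed in library totals. Alternatives were DESeq2 1.42.0, library totals alone, no filter, all genes, Cdk8 removed, a replicate block and leaving out each library. Scripts were tested on simulated data. Python 3.11.15, pandas 2.3.3, numpy 2.4.6, scipy 1.17.1 and matplotlib 3.10.9 served for levels, peaks and figures.

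Members and lists were chosen with earlier results of these data known. By the rule for named genes, members past the threshold, and in comparisons between the genotypes the 3 with the smallest p, are given with fold changes, and others with values were chosen after their values were seen. The study treats its libraries as biological preparations, each of pooled brains, and p-values measure the spread between them.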

Additional observations from a re-analysis of the deposited data

How the results depend on the processing

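With library totals alone, 2 kinesin genes were higher and 31 lower in WT occupancy, 0 and 34 in FMR1 KO, and 0 were enriched in FMR1 KO with standard nuclease. DESeq2 gave 19 enriched genes there (1570 over all genes), 13 in WT with low nuclease (2962 over all genes), and 2 lower in FMR1 KO low nuclease fraction 5/6 (119 over all genes). Leaving out 1 library gave 23 to 27 higher and 6 to 7 lower genes in WT occupancy, 21 to 24 and 6 to 8 in FMR1 KO, and for enrichment 0 to 9 (WT) and 6 to 11 (FMR1 KO) with standard and 6 to 10 (WT) and 3 to 9 (FMR1 KO) with low nuclease. Without the 3 low nuclease RNA-seq libraries with few neuron counts, an alternative added after the data were seen, Kif9 was at -0.13 and Kif6 at -0.63 between the genotypes, with a single FMR1 KO library left. Sites shared by all 6 pellet libraries were 9 with a tolerance of 12 nt, and those shared by at least 5 were 2 with 3 nt and 29 with 12 nt. Replicate numbers were not taken as pairs, since in 0 of 14 pairs of groups was every correlation of same-numbered libraries over 0.1 (range -0.66 to 0.83 over 16174 genes). With the replicate block, 6 genes were enriched in FMR1 KO with standard nuclease (Kif1a, Kif11, Kif23 and Kif4 were not called), 10 in WT and 14 in FMR1 KO with low nuclease, and the occupancy counts were 25 higher and 7 lower in WT and 24 and 8 in FMR1 KO. Shares over all genes in the fits with the block are not set beside these counts, and the causes of these shifts were not tested. Comparisons between the genotypes kept 0 calls under every other alternative run. Removing Cdk8, all genes and no filter moved no count of kinesin genes by over 1.5 times. In several groups summed CPM of the family moved by more than the replicate SD when Cdk8 stayed in the total or TMM sizes were used. With Cdk8 in the total the WT standard pellet had 3570.1 CPM in place of 6542, below the 5675 of the WT standard RNA-seq. With TMM sizes that RNA-seq had 2502 CPM and the pellet 6358. Kif28 and Kifc5b, with 1 to 10 counts in standard RPF libraries, are limited by depth.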

Other observations

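Some lowly expressed kinesin genes varied widely among the low nuclease libraries of a group. Kif14 had 31.1 and 34.4 CPM in WT pellet replicates 1 and 2 and 5.93 in replicate 3, and 29.1 CPM in FMR1 KO pellet replicate 1 against 3.61 and 5.19 in the others, and 4.26 to 27.2 CPM over the 6 fraction 5/6 libraries. Kif7 had 51.5 CPM in WT pellet replicate 1 and 16.2 and 13.6 in the other two, and Kif1c 55.4 and 40.7 CPM in replicate 3 of the WT and FMR1 KO pellet against 8.52 to 16.3 in the other 4 libraries. In the standard pellets Kif14 was at 4.03 to 5.69 CPM and Kif1c at 5.61 to 8.67 CPM. For these genes 1 library can set a group's mean. Kif13a, which is no member, ranged from 16.3 to 64392 CPM over the standard RPF libraries and from 61.5 to 77.4 CPM over the standard RNA-seq libraries.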
